A study of Mus musculus with 15 samples.

Results

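Gene expression in the striatum of F1 males was compared between sons of methamphetamine-treated and saline-treated sires. The comparison used every F1 library, 7 of the 15 libraries of the series, namely 3 METH and 4 saline libraries, chosen by their labels. All 7 mice were wild-type males of the outbred ICR stock, 7 weeks old at collection, and the labels give no drug treatment of the sons themselves. Their sires were treated subcutaneously from 6 weeks of age for 21 days, with METH at 5 mg/kg or with saline at 10 mL/kg, and were then mated with untreated females. The labels do not tie the sons to litters or individual sires, so p-values here measure only the spread between these 7 libraries.

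The striatum is the main input nucleus of the basal ganglia and the chief target of midbrain dopamine neurons, on whose terminals methamphetamine acts by reversing monoamine transport. Most of its neurons are GABAergic spiny projection neurons of the direct and indirect pathways, with a minority of cholinergic and GABAergic interneurons among them. Fibre bundles of the internal capsule rich in myelin cross it, and cortex, ventricle wall and white matter border it, so that oligodendrocytes, astrocytes, microglia and vessel cells all contribute RNA to a block of this tissue.

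The labels call the cell type neuronal, but the libraries also held abundant glial RNA. Averaged over the 7 libraries, the deposited TPM, a length-scaled level, was 2333 for Ppp1r1b, the spiny neuron phosphoprotein DARPP-32, and 1218 for Snap25, a protein of nerve terminals. It was 3672 for Mbp, myelin basic protein, and 1082 for Glul, the astrocyte enzyme glutamine synthetase. Total counts ran from 32805918 to 38514778 per library. Slc17a7, a glutamate transporter of cortical excitatory neurons, was at 322, 98.0, 526 and 9.47 CPM (counts scaled to a common library total) in saline replicates 1 to 4. It was at 31.0, 24.0 and 396 CPM in METH replicates 1 to 3. Saline replicates 1 and 3 and METH replicate 3, all above 100 CPM, are called rich in cortical RNA below, and saline replicate 2 lay just under that limit. The first principal component, 33.4% of the variance, placed these 3 libraries on one side (scores of 13.3, 48.7 and 38.0) and METH replicates 1 and 2 and saline replicate 4 on the other (-31.5, -28.6 and -40.3). Saline replicate 2 scored 0.2. In bulk tissue, fewer cells of a type and less RNA per cell cannot be told apart.

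The comparison asked which striatal genes differed with the sire's treatment. edgeR's quasi-likelihood test called 0 of 18499 genes at an adjusted p under 0.05, which is 0.0% of those tested. The smallest adjusted p was 0.785, for Aox4, and every other gene named below had an adjusted p of 0.994. DESeq2 called 11 genes (0.0595%) and limma-voom 3 (0.0162%). No gene is therefore reported as changed, and what follows gives levels, fold changes and counts. With an unadjusted p under 0.05, 466 genes were higher in METH mice, 2.52% of those tested, and 308 were lower, 1.66%, together 774 or 4.18%. In the deposited TPM the split was the other way, with 247 higher and 782 lower at the same threshold. All METH libraries lay above all saline libraries for 570 genes (3.08%) and below them for 447 (2.42%). The log2 fold change was above 0 for 49.1% of genes and below 0 for 50.8%, with a median of -0.0035. These are the backgrounds for the gene lists below. A list's level in a library is its members' mean log2 CPM minus the mean of the 4 saline libraries.

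Among the 15 higher genes with the smallest p, the spread differed, with an SE of the log2 fold change of 0.086 for Prr18 and 0.23 for Myo5c. Myo5c (gene ID 208943, chromosome 9, 75231969 to 75307485), an actin-based motor of the class V myosins, was at 5.02, 3.28, 4.44 and 2.69 CPM in saline and at 6.99, 7.45 and 8.94 CPM in METH mice. The groups did not overlap, and the log2 fold change was 1.01 (SE 0.23, unadjusted p = 0.0017). Lin28b (gene ID 380669, chromosome 10, 45376617 to 45486314), an RNA-binding protein known for blocking let-7 maturation, was at 11.9, 11.5, 13.8 and 12.8 CPM in saline. In METH mice it was at 15.5, 18.4 and 20.02 CPM, again without overlap, with a log2 fold change of 0.52 (SE 0.12). Kcnt1, a sodium-activated potassium channel, was at 330 to 396 CPM in saline and at 435 to 459 CPM in METH mice (0.34 on the log2 scale, SE 0.083). For Sspn, encoding sarcospan of the dystrophin-glycoprotein complex, the log2 fold change was 0.63 (SE 0.16), and for Adamtsl4, a matrix protein, 0.55 (SE 0.14). Fam214a, Prr18 and Tmem204 had log2 fold changes of 0.35, 0.39 and 0.50, also with every METH library above every saline library.

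Some lower genes, such as Mex3b and Nme1, showed narrow groups, while Inafm1 and Tmem130 spread more widely. Mex3b (gene ID 108797, chromosome 7, 82867333 to 82871576), an RNA-binding protein, was at 18.2, 17.8, 18.0 and 17.1 CPM in saline and at 13.3, 12.6 and 13.7 CPM in METH mice. Nme1 (gene ID 18102, chromosome 11, 93958925 to 93968272), a nucleoside diphosphate kinase, was at 80.6, 84.4, 86.6 and 82.7 CPM in saline and at 69.7, 65.8 and 67.8 CPM in METH mice. The log2 fold changes were -0.43 (SE 0.092, unadjusted p = 0.0013) and -0.30 (SE 0.064, unadjusted p = 0.0011). Neither gene's groups overlapped, and the gap between groups exceeded the SD within either group. Arpc3, a subunit of the actin-nucleating Arp2/3 complex, was at -0.27 on the log2 scale (SE 0.070), and Cdc5l, a splicing factor, one of -0.35 (SE 0.087). Aars2, the mitochondrial alanyl-tRNA synthetase, stood at -0.35 (SE 0.094) and Ssx2ip, a centrosomal protein, at -0.29 (SE 0.079). Tmem130 (-0.59), Inafm1 (-1.04), Ankrd34a (-0.32) and Arhgap26 (-0.25) were also lower, without overlap of the groups. The 15 per direction were taken in order of p from genes at a mean of at least 1 CPM, so their small p-values follow from the choice. That choice also favours narrow groups with a gap between them.

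Vessel genes were mostly higher in METH mice. Of 32 tested endothelial genes, 28 were higher and 4 lower, 12 had an unadjusted p under 0.05, all higher, and 9 had groups without overlap. The median log2 fold change was 0.22. The list's level was 0.08, -0.06, -0.07 and 0.06 in saline replicates 1 to 4 and 0.20, 0.20 and 0.31 in METH replicates 1 to 3. Every METH library thus lay above every saline library. Of 18 pericyte and smooth muscle genes, 17 were higher and 1 lower, with a median of 0.25. Their levels were 0.18, -0.15, -0.12 and 0.09 in saline and 0.28, 0.21 and 0.23 in METH mice, also without overlap. Of 25 fibroblast and meningeal genes, 18 were higher and 7 lower, with a median of 0.16, and the levels again did not overlap.

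In the endothelial list, the transporter Slco1a4 (gene ID 28250, chromosome 6, 141805438 to 141856284), which carries organic anions, was at 55.0, 47.5, 41.2 and 44.3 CPM in saline and at 64.0, 59.9 and 62.3 CPM in METH mice. Abcb1a (gene ID 18671, chromosome 5, 8567091 to 8748575), P-glycoprotein, which pumps drugs back to the blood, was at 34.7, 35.6, 30.2 and 28.0 CPM in saline and at 39.9, 37.8 and 49.8 CPM in METH mice. Slc2a1, the glucose transporter GLUT1, was at 123, 106, 86.2 and 114 CPM in saline and at 129, 125 and 156 CPM in METH mice. In all 3 genes the lowest METH library exceeded the highest saline library. Of other transporters, the amino acid transporter Slc7a5 stood at 0.22 (SE 0.094) without overlap, and the groups overlapped for Slco1c1 at 0.19 (SE 0.12), Abcg2 at 0.24 (SE 0.17) and Slc16a1 at 0.12 (SE 0.086). Nostrin, which binds endothelial nitric oxide synthase, had a log2 fold change of 0.64 (SE 0.20). Of signalling and junction genes, the VEGF receptor Flt1 stood at 0.19 (SE 0.077), the TGF-beta co-receptor Eng at 0.25 (SE 0.12) and the tight junction gene Ocln at 0.23 (SE 0.12), each without overlap of the groups. Other members of the same kind had overlapping groups. Some lay nearer 0, with Cldn5 at -0.01, Cdh5 at 0.07, Tek at 0.02, Tie1 at 0.12, Egfl7 at -0.08 and Emcn at -0.12. Others did not, with Kdr at 0.21 (SE 0.23) and Esam at 0.30 (SE 0.12). These genes from Flt1 on and the 4 transporters before Nostrin were chosen after their values were seen. Not every abundant endothelial gene was higher: Bsg, basigin, at the list's highest TPM, was at 387 ± 14.9 CPM in saline (SD, n = 4) and 371 ± 13.3 CPM in METH mice (SD, n = 3).

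Atp13a5 (gene ID 268878, chromosome 16, 29230490 to 29378766), a P5-type ATPase found in brain pericytes, was at 10.99, 13.5, 11.5 and 11.5 CPM in saline and at 14.7, 16.2 and 18.3 CPM in METH mice (0.47 on the log2 scale, SE 0.12). Rgs5, a pericyte regulator of G protein signalling, was at 82.6, 78.4, 85.4 and 102 CPM in saline and at 109, 105 and 110 CPM in METH mice. Neither gene's groups overlapped. Anpep, aminopeptidase N, had a log2 fold change of 0.44 (SE 0.18). Among contractile genes, Myl9 stood at 0.31 (SE 0.21), with overlapping groups. Col1a1, a fibrillar collagen chain, was at 3.17 to 4.09 CPM in saline and at 4.53 to 6.20 CPM in METH mice. Igf2, a growth factor of meninges and choroid plexus that is also imprinted, was at 20.9 to 33.1 CPM in saline and at 30.6 to 35.1 CPM in METH mice. Vtn, vitronectin, belongs to both the pericyte and the fibroblast list, with a log2 fold change of 0.30 (SE 0.090). The endothelial genes at an unadjusted p under 0.05 numbered 3 without METH replicate 3 or without the libraries rich in cortical RNA, 6 without saline replicate 2 or 3, and 7 on log2(TPM + 0.1). Without saline replicate 2 the pericyte median was 0.15, and without saline replicate 1 the fibroblast median was 0.25.

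**Figure D1:**
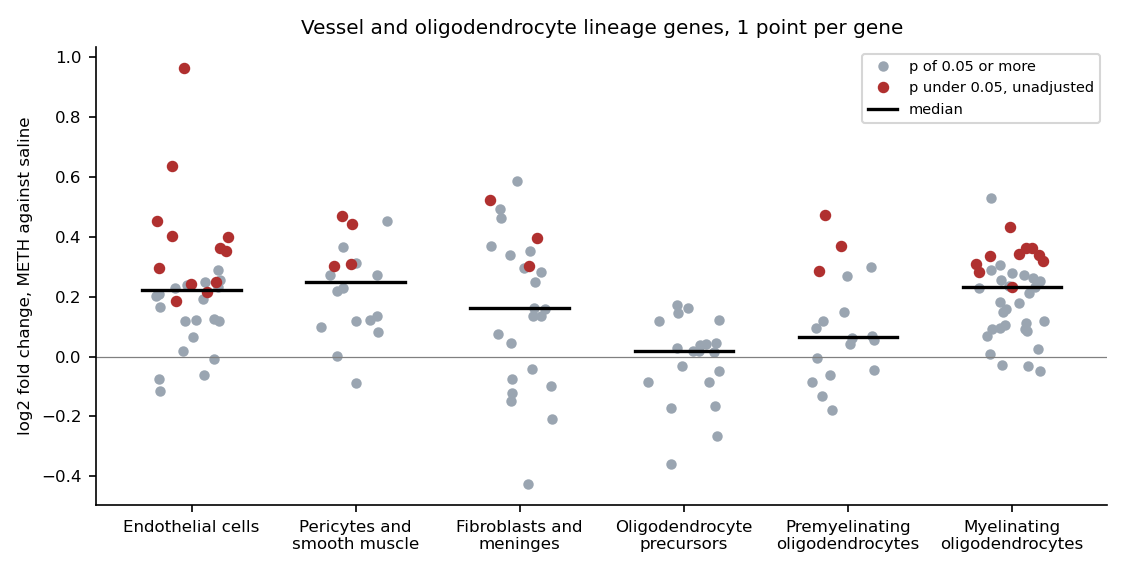
Log2 fold change (METH against saline) of every tested member of 3 vessel lists and 3 lists along the oligodendrocyte lineage, 1 point per gene, with red points for an unadjusted p under 0.05 and a black line for the median. The medians are 0.22, 0.25 and 0.16 for the vessel lists, and 0.02, 0.07 and 0.23 from oligodendrocyte precursors to myelinating cells.

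Along the oligodendrocyte lineage, the lists differed by stage. Of 20 precursor genes, 12 were higher and 8 lower, with a median of 0.02 and 0 at an unadjusted p under 0.05. Of 18 premyelinating genes, 12 were higher and 6 lower, with a median of 0.07. Of 39 genes of myelinating cells, 36 were higher and 3 lower, with a median of 0.23 and 10 at an unadjusted p under 0.05, all higher. None of the 39, however, had every METH library above every saline library. Their level was -0.11, 0.04, 0.01 and 0.05 in saline replicates 1 to 4 and -0.04, 0.36 and 0.29 in METH replicates 1 to 3. METH replicate 1 therefore lay among the saline libraries, and the other two METH libraries lay above them. No test of the difference between stages was run.

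Of structural myelin genes, Mobp, a myelin-associated basic protein, was at 1088, 1078, 1179 and 1559 CPM in saline and at 1387, 1724 and 1861 CPM in METH mice (0.43 on the log2 scale, SE 0.16). METH replicate 1 fell inside the saline range, and the other METH replicates lay above it. Mbp had a log2 fold change of 0.34 (SE 0.14). Beyond structural genes, Adamts4, an aggrecanase made by oligodendrocytes, stood at 0.36 (SE 0.13), Tmem88b at 0.34 (SE 0.11) and Il33, a nuclear alarmin of oligodendrocytes, at 0.34 (SE 0.11). Premyelinating genes with an unadjusted p under 0.05 were Bcas1, Kif19a, a kinesin (0.28, SE 0.11), and Itpr2, an inositol trisphosphate receptor (0.37, SE 0.16). Sirt2, a myelin-associated deacetylase, stood at 0.15 (SE 0.086). Of precursor genes, Olig1, a lineage transcription factor, was at 113 ± 8.81 CPM in saline (SD, n = 4) and 116 ± 15.3 CPM in METH mice (SD, n = 3), and Cacng4, an AMPA receptor auxiliary subunit, had a log2 fold change of 0.15 (SE 0.20). The myelinating genes at an unadjusted p under 0.05 numbered 21 without METH replicate 1, 0 without METH replicate 2 (median 0.14), 3 without METH replicate 3, and 2, 5 and 6 without saline replicates 1, 2 and 3. They numbered 1 in the deposited TPM, 1 without the libraries rich in cortical RNA and 19 with the replicate block. Over all genes tested, 836 were higher at that threshold with the block, against 466 in the main fit. On log2(TPM + 1) there were 247, and without the libraries rich in cortical RNA 270. With single libraries left out the precursor median ran from -0.07 (without METH replicate 3) to 0.06 and the premyelinating median from -0.02 (without METH replicate 3) to 0.14, the highest of both being without METH replicate 1.

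Astrocyte and microglial genes were also mostly higher, with METH replicate 3 standing out. Of 34 astrocyte genes, 28 were higher and 6 lower, with a median of 0.18. Their level was -0.12, 0.11, 0.03 and -0.03 in saline and 0.11, 0.02 and 0.39 in METH mice. Phkg1, a catalytic subunit of phosphorylase kinase in glycogen breakdown, was at 17.6, 16.6, 17.6 and 19.5 CPM in saline and at 22.4, 21.5 and 26.5 CPM in METH mice (0.40 on the log2 scale, SE 0.11), and its groups did not overlap. Slc7a10, a transporter of D-serine and glycine, was at 0.30 on the log2 scale (SE 0.13) and overlapping groups. The glutamate transporter Slc1a2 reached 3996 CPM in METH replicate 3 and 2159 to 2810 CPM in the other 6 libraries, and the gap junction gene Gjb6 reached 40.4 CPM there against 21.2 to 27.1 CPM. At the head of the list by TPM, Glul, Clu, the secreted chaperone clusterin, and Sparcl1, a synapse-organizing matrix protein, stood at 0.04, 0.15 and 0.30. METH replicate 3 was also rich in cortical RNA, and without it the astrocyte median was 0.07. With the cortical list as a covariate the median was 0.20.

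Of 32 genes of microglia and brain macrophages, 28 were higher and 4 lower, with a median of 0.16. The list's level reached 0.34 in METH replicate 3, against 0.09 and 0.08 in the other METH libraries and -0.12 to 0.11 in saline. The pan-leukocyte phosphatase Ptprc was at 1.71, 1.95, 1.79 and 1.24 CPM in saline and at 2.09, 2.50 and 2.69 CPM in METH mice. Mrc1, the mannose receptor of perivascular macrophages, was at 1.77, 1.55, 1.84 and 1.93 CPM in saline and at 2.50, 2.37 and 2.32 CPM in METH mice. These 2 were the list's genes with an unadjusted p under 0.05, and in both the groups did not overlap. The more abundant genes lay closer together, with log2 fold changes of 0.11 for the lipoprotein gene Apoe and 0.15 for the complement gene C1qa. Without METH replicate 3 the list's median was 0.03.

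**Figure D2:**
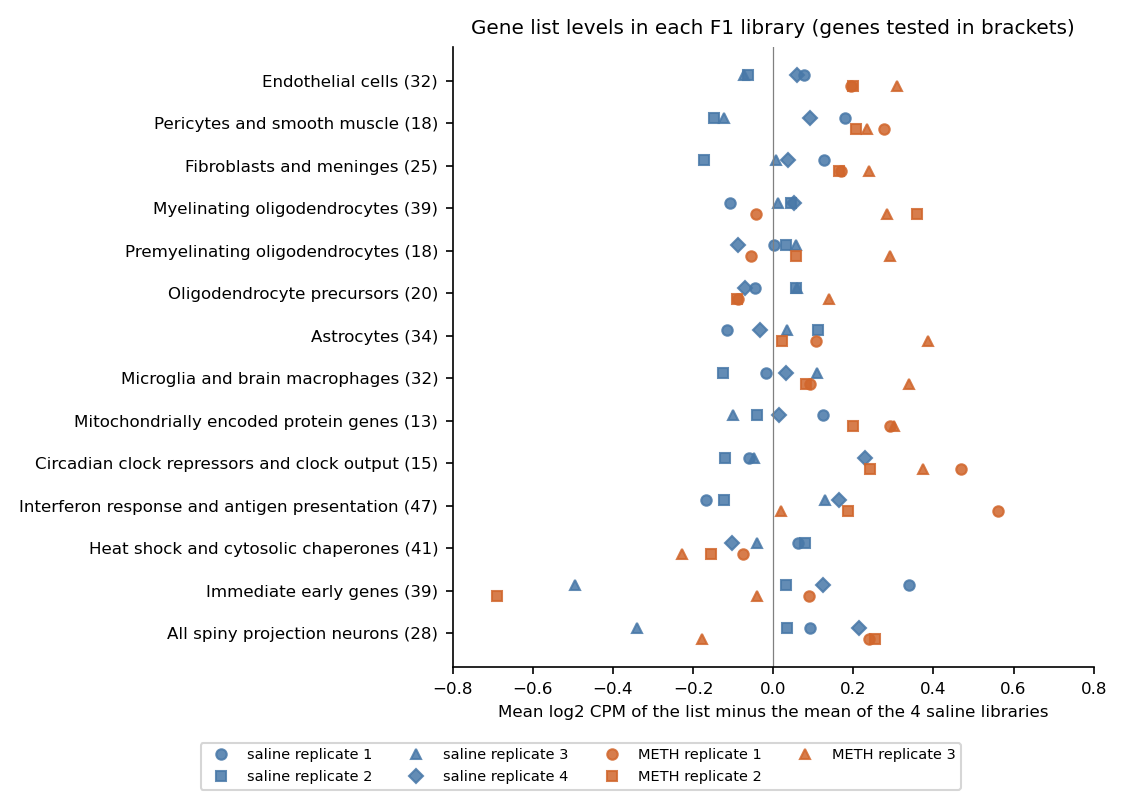
Level of 14 gene lists in each F1 library, as the mean log2 CPM of the tested members minus the mean of the 4 saline libraries (x axis), with blue symbols for saline and orange for METH replicates. All 3 METH libraries lie right of all saline libraries for the endothelial, pericyte, fibroblast, mitochondrial and clock repressor lists, while METH replicate 3 stands alone in astrocyte genes (0.39) and METH replicate 1 in interferon genes (0.56).

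RNA encoded by the mitochondrial genome was higher in METH mice across every gene type. Of 37 annotated mitochondrial genes 33 were tested, 13 for proteins, 2 for ribosomal RNAs and 18 for transfer RNAs, and 33 were higher. The median log2 fold change was 0.27 for proteins, 0.12 for the ribosomal RNAs and 0.41 for the transfer RNAs. All METH libraries lay above all saline libraries for 17 of the 33. The protein genes took 7.40%, 6.93%, 6.64% and 7.12% of all counts in saline replicates 1 to 4 and 8.39%, 7.84% and 8.53% in METH replicates 1 to 3. Genes of one genome transcribed as long precursors are not independent, and so their common direction is no count of separate events.

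By complex, the complex I subunits ND4 and ND4L stood at 0.30 (SE 0.10) and 0.32 (SE 0.11), and the ATP synthase subunit ATP8 at 0.29 (SE 0.099). ND4 was at 5793, 5333, 5070 and 5428 CPM in saline and at 7026, 6294 and 6638 CPM in METH mice. ATP8 was at 2188, 1810, 1870 and 1930 CPM in saline and at 2388, 2276 and 2488 CPM in METH mice. For both, every METH library exceeded every saline library. The cytochrome oxidase genes COX1 and COX2 stood at 0.24 (SE 0.12) and 0.23 (SE 0.11), also without overlap. ND6, the protein gene encoded on the opposite strand from the others, had the smallest fold change among the proteins, 0.12 (SE 0.11), with 203, 153, 158 and 172 CPM in saline and 177, 194 and 188 CPM in METH mice. The ribosomal RNA genes mt-Rnr1 and mt-Rnr2 stood at 0.12 (SE 0.087) and 0.11 (SE 0.10). Of transfer RNA genes, TrnQ and TrnI, for glutamine and isoleucine, stood at 0.46 (SE 0.14) and 0.49 (SE 0.19).

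The mitochondrial gene with the smallest p was TrnL1 (chromosome MT, 2676 to 2750, plus strand), a leucine transfer RNA gene of 75 bases that directly follows mt-Rnr2. It is shown whole, from the GENCODE transcripts of build GRCm38, because its reads are counted over so short a sequence.
TrnL1: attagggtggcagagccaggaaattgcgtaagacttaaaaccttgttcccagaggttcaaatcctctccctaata
It was at 31.3, 27.6, 31.4 and 20.05 CPM in saline and at 44.5, 46.3 and 41.4 CPM in METH mice (0.68 on the log2 scale, SE 0.15) and well apart between the groups. The gene immediately upstream, mt-Rnr2, had 3407, 3080, 3291 and 2858 CPM in saline and 3308, 3349 and 3565 CPM in METH mice, and these overlapped. The gene immediately downstream, ND1, had a log2 fold change of 0.26. Whether the reads came from the transfer RNA or from precursors was not tested.

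Nuclear genes for the same respiratory complexes had smaller differences, mostly below 0. Of 74 tested subunits, 18 were higher and 56 lower, with a median of -0.05 and 0 at an unadjusted p under 0.05 by edgeR in either direction. Their log2 fold changes ran from -0.17 to 0.07, below the 0.12 to 0.32 of the 13 mitochondrial protein genes. Without METH replicate 3 this median was 0.01, and without METH replicate 1 it was -0.10. On log2(TPM + 1) 73 of the 74 were lower, with a median of -0.11 and 5 at an unadjusted p under 0.05, and the cortical covariate gave a median of -0.09 with 5 lower. Over all genes tested, log2(TPM + 1) gave 36.6% higher, a median of -0.0474 and 5.56% at that threshold. The covariate gave a median of -0.0066 and 7.41% at that threshold over all genes. Without saline replicate 2 or METH replicate 1 the number of mitochondrial protein genes at an unadjusted p under 0.05 was 2 in place of 7, without saline replicate 3 or METH replicate 3 it was 3, and in each fit that left out 1 library all 13 were higher. In the deposited TPM 0 of the 13 passed that threshold and all 13 were higher, and DESeq2 and limma-voom gave 12 and 11.

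**Figure D3:**
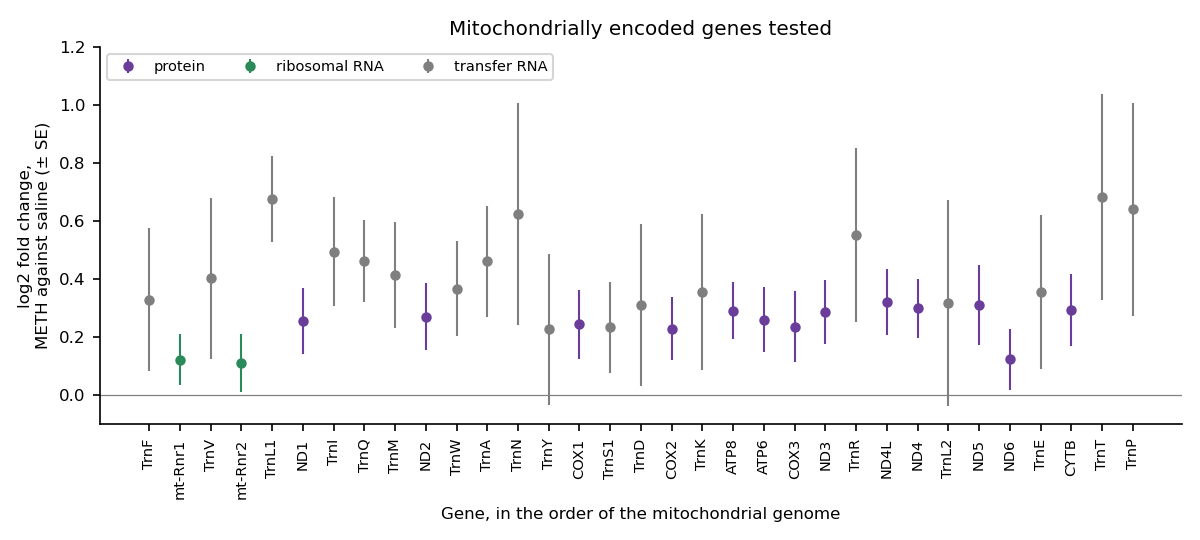
Log2 fold change (METH against saline) ± SE of the 33 tested mitochondrially encoded genes, in genome order, coloured by gene type. All points lie above 0, with the 2 ribosomal RNA genes at 0.12 and 0.11 and TrnL1 at 0.68.

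Interferon-induced GTPases are cell-autonomous defence proteins, namely guanylate-binding proteins (Gbp) and immunity-related GTPases, whose genes are switched on by interferons. IRF-family factors bind the interferon-stimulated response element, whose core was searched as the 10 letters in capitals below, with any base at the 2 positions in the middle, on both strands of RefSeq promoter windows (build GRCm38.p6, 250 bases before to 50 after each start). It occurred in 9 of the 10 GTPase genes with a window, against 3.99% of all 27025 genes with a window and 3.63% of those tested here. Of 33 other interferon and antigen presentation genes with a window, 14 held it. Stretches of 60 bases around the match are shown for 4 GTPase genes named below, with the match, on either strand, in capitals. They lie at chr3:142496744-142496803 (Gbp5, plus), chr3:142530258-142530317 (Gbp7, plus), chr11:48992289-48992348 (Tgtp1, minus) and chr11:49064248-49064307 (Tgtp2, minus).
Gbp5: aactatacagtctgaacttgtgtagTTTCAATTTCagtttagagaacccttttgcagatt
Gbp7: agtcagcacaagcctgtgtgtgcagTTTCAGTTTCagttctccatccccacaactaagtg
Tgtp1: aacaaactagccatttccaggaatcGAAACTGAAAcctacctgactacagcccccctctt
Tgtp2: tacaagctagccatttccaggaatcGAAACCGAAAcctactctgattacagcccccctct
A match of letters is a description of sequence and not a binding site.

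Of 17 tested GTPase genes, 15 were higher and 2 lower in METH mice, with a median log2 fold change of 0.82 and 7 at an unadjusted p under 0.05. The list's level was -0.004, -0.05, -0.10 and 0.16 in saline and 1.67, 0.24 and 0.20 in METH mice. METH replicate 1 stood far above the rest. Gbp3 (gene ID 55932, chromosome 3, 142560016 to 142573213) was at 2.54, 2.63, 2.94 and 3.38 CPM in saline and at 8.27, 5.29 and 4.38 CPM in METH mice. Gbp5 (gene ID 229898, chromosome 3, 142496934 to 142522344) was at 2.098, 1.92, 1.34 and 2.03 CPM in saline and at 6.40, 4.09 and 2.29 CPM in METH mice. Gvin1, a very large interferon-inducible GTPase, was at 1.23 to 2.01 CPM in saline and at 4.71, 2.34 and 2.42 CPM in METH mice. In these 3 genes, the only ones of the list without overlap, METH replicates 2 and 3 also exceeded saline.

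In several other members METH replicate 1 stood far above the rest. Tgtp1 and Tgtp2, neighbouring T-cell-specific GTPase genes of near-identical sequence whose reads could be split between them, were at 5.65 and 6.40 CPM in METH replicate 1. Across the other 6 libraries Tgtp1 was at 0.158 to 0.580 CPM and Tgtp2 at 0.141 to 0.513 CPM. Gbp4 was at 15.9 CPM in METH replicate 1 and at 1.601 to 4.04 CPM elsewhere, and Gbp7 at 10.2 CPM against 4.51 to 6.16 CPM. For Iigp1 these values were 2.87 CPM and 0.166 to 0.859 CPM, and for Igtp 3.74 CPM and 0.847 to 1.81 CPM. Irgm1, the most abundant by TPM, was closer, at 4.81 CPM against 2.66 to 4.26 CPM. Gbp6 and Gbp10, the 2 lower members, stood at -0.16 (SE 0.42) and -0.09 (SE 0.55). Without METH replicate 1 the list had 11 genes higher and 6 lower, a median of 0.27 and 2 at an unadjusted p under 0.05, and on log2(TPM + 1) the median was 0.32 with 3. Gbp genes also share close sequence, and their levels are uncertain to that extent. Gbp6, Gbp7, Gbp10, Iigp1 and Igtp were chosen after their values were seen.

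Other interferon and antigen presentation genes followed the same library. Of 47 tested, 37 were higher and 10 lower, with a median of 0.27, and the list's level was 0.56 in METH replicate 1, 0.19 and 0.02 in the other METH libraries and -0.17 to 0.16 in saline. H2-Q4, a class I histocompatibility gene with close paralogs, was at 2.098, 1.53, 2.13 and 2.72 CPM in saline and at 12.2, 3.72 and 3.29 CPM in METH mice. Ifit1, an antiviral RNA-binding protein, was at 0.580, 0.932, 0.762 and 0.369 CPM in saline and at 1.87, 1.15 and 1.30 CPM in METH mice. Psmb9, an immunoproteasome subunit, was at 0.475 to 0.734 CPM in saline and at 1.69, 0.807 and 0.936 CPM in METH mice. The groups did not overlap in these 3 genes. Ifih1, the RNA sensor MDA5, was at 0.62 on the log2 scale (SE 0.22), and B2m, the class I light chain, was at 42.5 CPM in METH replicate 1 and at 20.9 to 29.6 CPM elsewhere. Of 20 peripheral leukocyte markers only 3 were abundant enough to be tested. Higher genes at an unadjusted p under 0.05 numbered 7 of the 47, 1 without METH replicate 1, and 4 without METH replicate 3 or saline replicate 1. Without METH replicate 3 the median was 0.43, and on log2(TPM + 1) it was 0.15 with 3 such genes.

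**Figure D4:**
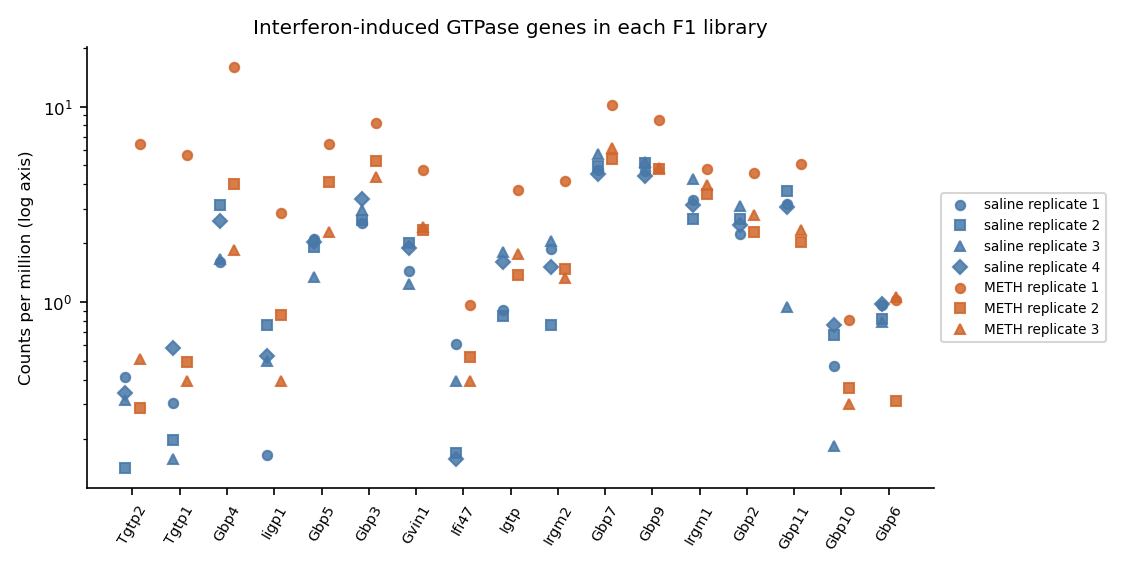
CPM (log axis) of the 17 tested interferon-induced GTPase genes in each F1 library, ordered by fold change, with blue symbols for saline and orange for METH replicates. METH replicate 1 (orange circles) is highest for most genes, at 6.40 CPM for Tgtp2, where the other libraries lie at 0.141 to 0.513 CPM.

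The circadian clock is a loop in which CLOCK or NPAS2 pairs with BMAL1 (Arntl) and activates Per, Cry, Nr1d and output genes through E-boxes, and the PER and CRY proteins then repress the activators. The E-box CACGTG was searched on both strands of the same windows. It occurred in 5 of 13 repressor and output genes with a window, in 0 of 7 activators, in 8.09% of all windows and in 10.8% of those of genes tested. The D-box TTANGTAA, bound by DBP, TEF and HLF, occurred in 1 of the 13, against 2.72% of all windows. Stretches with the E-box in capitals are shown for Ciart (chr3:95882312-95882371, minus), Bhlhe41 (chr6:145865541-145865600, minus), Tef (chr15:81802519-81802578, plus) and Cry1 (chr10:85185082-85185141, minus), the last being the member with a lower mean.
Ciart: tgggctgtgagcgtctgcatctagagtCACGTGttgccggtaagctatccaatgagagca
Bhlhe41: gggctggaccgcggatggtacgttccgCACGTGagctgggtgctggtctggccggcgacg
Tef: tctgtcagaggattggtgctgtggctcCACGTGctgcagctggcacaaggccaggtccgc
Cry1: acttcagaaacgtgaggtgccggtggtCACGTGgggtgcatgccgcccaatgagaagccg

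Of 15 repressor and output genes, 14 were higher and 1, Cry1, lower in METH mice, with a median log2 fold change of 0.32 and 9 at an unadjusted p under 0.05. The list's level was -0.06, -0.12, -0.05 and 0.23 in saline and 0.47, 0.24 and 0.37 in METH mice. Saline replicate 4 and METH replicate 2 were nearly level, and the groups just failed to overlap. Ciart (gene ID 229599, chromosome 3, 95878500 to 95882257), a repressor of CLOCK and BMAL1, was at 9.28, 13.3, 17.7 and 22.5 CPM in saline and at 29.5, 23.2 and 27.9 CPM in METH mice. Per3 (gene ID 18628, chromosome 4, 150997018 to 151044707) was at 71.9, 69.3, 83.3 and 88.9 CPM in saline and at 98.5, 93.0 and 121 CPM in METH mice. Nr1d2, the nuclear receptor REV-ERB beta, was at 93.5, 99.8, 121 and 123 CPM in saline and at 136, 140 and 126 CPM in METH mice. Hlf, a PAR-domain factor of the output arm, was at 144 to 182 CPM in saline and at 184 to 211 CPM in METH mice. These 4 were the members without overlap of the groups.

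Other members overlapped. Per2 was at 94.3, 65.7, 50.2 and 69.2 CPM in saline and at 126, 79.7 and 129 CPM in METH mice, and Per1 at 175, 147, 92.4 and 211 CPM in saline and 247, 134 and 206 CPM in METH mice. The log2 fold changes were 0.68 (SE 0.22) and 0.32 (SE 0.28). The output genes Dbp (0.55, SE 0.22) and Tef (0.24, SE 0.10) and the repressors Bhlhe41 (0.45, SE 0.16) and Nr1d1 (0.47, SE 0.21) were highest among saline mice in saline replicate 4. Bhlhe40 stood at 0.40 (SE 0.14), and Cry2, Usp2 and Fbxl21 at 0.12, 0.25 and 0.06. Fbxl21 was below 0 without saline replicate 4, and Cry1 above 0 without saline replicate 1 or METH replicate 2. Members beyond Per2, Per3, Ciart, Bhlhe41, Tef, Dbp and Cry2 were chosen after their values were seen. Cry1 was at 32.4, 26.6, 21.5 and 23.6 CPM in saline and at 29.2, 21.6 and 23.2 CPM in METH mice, within the same range. Of 8 genes on the activator list, which also holds Nfil3, a repressor of D-box genes, 4 were higher and 4 lower. Their median was -0.11, and it was -0.22 without saline replicate 4 and -0.04 without METH replicate 1. Npas2, the CLOCK paralog prominent in striatum, was at 84.8, 80.4, 67.7 and 82.5 CPM in saline and at 66.1, 67.3 and 62.6 CPM in METH mice, without overlap. Arntl stood at -0.28 (SE 0.20) and Clock at 0.04 (SE 0.078), which was -0.01 without METH replicate 2.

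Hour of death is not given in the labels, and its part in the clock gene levels was not tested. The repressor genes at an unadjusted p under 0.05 numbered 2 without METH replicate 1, 3 without saline replicate 2, 5 without saline replicate 1 or METH replicate 2, and 3 without the libraries rich in cortical RNA. The median stayed between 0.28 and 0.48 when single libraries were left out.

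**Figure D5:**
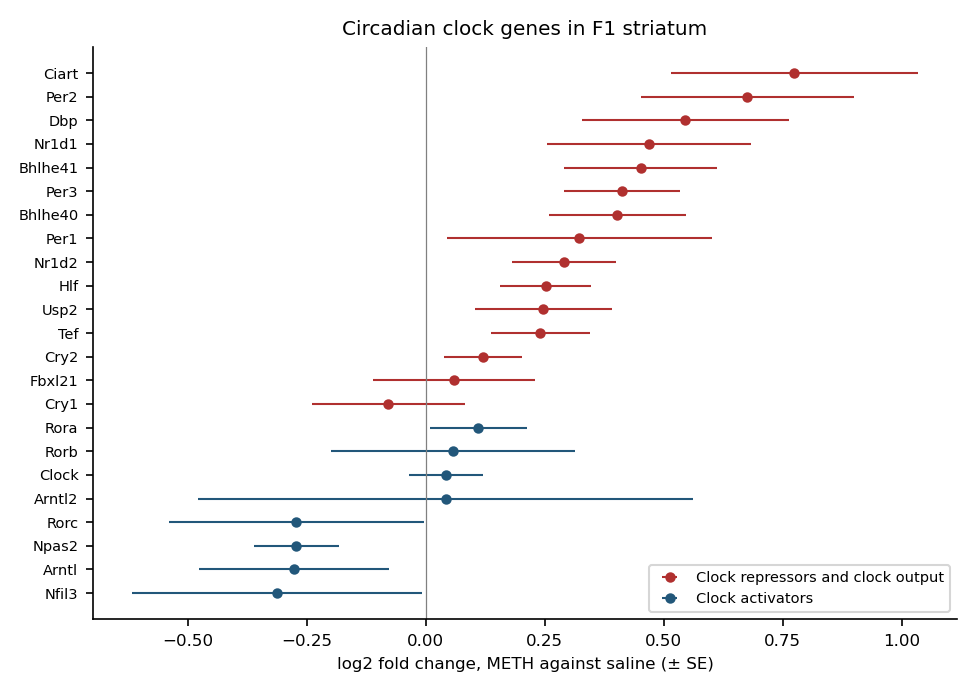
Log2 fold change (METH against saline) ± SE of 15 clock repressor and output genes (red) and 8 genes of the activator list (blue), sorted within each. Ciart (0.77) and Per2 (0.68) are the highest, and Npas2 (-0.27) and Arntl (-0.28) lie below 0.

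Genes responsive to glucocorticoids were mostly higher, 21 of 25, with a median of 0.19. The list's level was 0.40 in METH replicate 3, against 0.10 and 0.08 in the other METH libraries and -0.23 to 0.11 in saline. Pdk4, a kinase that shuts down pyruvate oxidation, was at 10.9 to 15.7 CPM in saline and at 16.7, 14.7 and 27.3 CPM in METH mice. Mfsd2a, a lysophospholipid transporter that also marks endothelium, was at 24.8 to 31.3 CPM in saline and at 35.7, 31.3 and 44.4 CPM in METH mice. Tsc22d3, the leucine zipper GILZ, reached 97.9 CPM in METH replicate 3 against 65.4 and 65.5 CPM in the other METH libraries. Tsc22d3 was chosen after its values were seen. Klf9 (0.18, SE 0.092) and the metallothionein Mt1 (0.31, SE 0.18) had overlapping groups. Without the 3 libraries rich in cortical RNA the median was 0.02, and without METH replicate 3 it was 0.11.

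Heat shock and cytosolic chaperone genes were mostly lower in METH mice. Of 41 tested, 36 were lower and 5 higher, with a median of -0.14. At an unadjusted p under 0.05, 10 were lower and 1 higher, and 6 had every METH library below every saline library. The list's level was 0.06, 0.08, -0.04 and -0.10 in saline and -0.08, -0.16 and -0.23 in METH mice, and it overlapped in saline replicate 4. Co-chaperones of HSP90 were among those without overlap. Ahsa1 (gene ID 217737, chromosome 12, 87266415 to 87273998), which stimulates the HSP90 ATPase, was at 106, 97.7, 81.8 and 80.9 CPM in saline and at 75.5, 70.3 and 62.3 CPM in METH mice. Fkbp4 (gene ID 14228, chromosome 6, 128430103 to 128438656), an immunophilin of steroid receptor complexes, was at 97.8, 98.3, 87.5 and 80.7 CPM in saline and at 75.6, 78.4 and 67.3 CPM in METH mice. Cdc37, which delivers kinases to HSP90, was at 120 to 134 CPM in saline and at 114, 111 and 100 CPM in METH mice. The other 3 were St13, an HSP70 cofactor (-0.16, SE 0.074), Hspa4, a nucleotide exchange factor (-0.19, SE 0.081), and Cct5, a subunit of the TRiC chaperonin (-0.21, SE 0.084). Cdc37, St13, Hspa4 and Cct5 were chosen after their values were seen.

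The chaperones themselves overlapped slightly with saline replicate 4. Hspa8, the constitutive HSP70, was at 970, 1018, 855 and 733 CPM in saline and at 735, 682 and 622 CPM in METH mice. Hsp90aa1 was at 719, 683, 663 and 517 CPM in saline and at 508, 530 and 478 CPM in METH mice, and Hsp90ab1 had a log2 fold change of -0.23 (SE 0.11). The stress-inducible Hspa1b had one of -0.64 (SE 0.20). P4ha1, a collagen prolyl hydroxylase subunit placed on this list, went the other way, at 67.8, 62.4, 46.9 and 55.6 CPM in saline and 71.6, 72.4 and 71.9 CPM in METH mice. The heat shock element was searched only as a fixed pattern of letters, in windows from 250 bases before to 50 after each start. It occurred in 5 of the 34 list genes with a window, against 0.662% of all windows. The list holds 41 genes, and those without a window could not be searched. No match was found for the genes named here. Whether they carry the element in a looser form or outside the window was not tested. Chaperones of the endoplasmic reticulum were split, 12 higher and 15 lower, with a median of -0.04 (0.01 without METH replicate 2). Without the 3 libraries rich in cortical RNA 0 chaperone genes were lower at an unadjusted p under 0.05, without METH replicate 3 there were 4, and without METH replicate 2 there were 6. There were 19 on log2(TPM + 1) and 19 with the replicate block. Over all genes tested, 782 and 1010 were lower at that threshold in these 2 fits, against 308 in the main fit.

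Genes of neuronal activity had lower means in most cases, with libraries of both groups at the low end. Of 39 immediate early genes, 32 were lower and 7 higher, with a median of -0.17. Their level was 0.34, 0.03, -0.49 and 0.12 in saline and 0.09, -0.69 and -0.04 in METH mice, so that saline replicate 3 and METH replicate 2 were lowest. Fos, a transcription factor of recent activity, was at 32.4, 33.9, 10.7 and 44.3 CPM in saline and at 19.7, 6.56 and 14.7 CPM in METH mice. Btg2, an antiproliferative early gene, was at 15.9, 17.6, 10.2 and 29.8 CPM in saline and at 14.0, 7.52 and 8.64 CPM in METH mice. Jun, the partner of FOS, was at 33.1 to 42.7 CPM in saline and at 27.2 to 35.0 CPM in METH mice. These 3 overlapped between groups. Egr1, Arc and Nr4a1, the most abundant by TPM, stood at -0.17 (SE 0.30), -0.33 (SE 0.42) and -0.48 (SE 0.52). The median was -0.04 and -0.36 without METH replicates 2 and 1, and -0.09 and -0.31 without saline replicates 1 and 3.

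Neuropeptide genes were lower in 22 of 28 cases, with a median of -0.30. Levels of the list were 0.11, 0.18, 0.41 and -0.69 in saline and -0.63, -0.78 and 0.01 in METH mice. Saline replicate 4 and METH replicates 1 and 2, the lowest, were also the libraries with the least Slc17a7, and that relation was not tested. The granin gene Scg2, a precursor of secretoneurin, was at 274, 329, 223 and 202 CPM in saline and at 209, 169 and 168 CPM in METH mice (-0.50 on the log2 scale, SE 0.17). Tac2, encoding neurokinin B, was low throughout, at 0.396 to 3.99 CPM in saline and 0.208 to 0.483 CPM in METH mice, with saline replicate 4 inside the METH range. Nts, neurotensin, was at 15.1 CPM in saline replicate 2 and at 2.32 to 6.21 CPM in all other libraries. The abundant striatal peptides lay closer together, with Penk, proenkephalin, at 0.11 (SE 0.20, and -0.03 without saline replicate 3) and Sst, somatostatin, at -0.10 (SE 0.11). The median was -0.11 without saline replicate 3, and -0.20 and -0.67 without METH replicates 2 and 3.

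Spiny projection neuron lists had medians of 0.03 to 0.13. Of 28 genes common to both pathways, 23 were higher in METH mice, with a median of 0.07, and the level was lowest in saline replicate 3 (-0.34) and METH replicate 3 (-0.18). Those were the libraries with the most Slc17a7, while saline replicate 1, also rich in cortical RNA, stood at 0.09. The median was -0.01 without saline replicate 3 and 0.21 without METH replicate 3, and it was also -0.01 with the cortical list as a covariate. Of direct pathway genes 6 of 10 were higher (median 0.03, from -0.07 to 0.14 with single libraries left out), and of indirect pathway genes 9 of 12 (median 0.13, from 0.03 to 0.28). In both the lowest was without saline replicate 3 and the highest without METH replicate 3. Drd1 stood at 0.06 (SE 0.17, and -0.06 without saline replicate 3 or METH replicate 2) and Drd2 at 0.23 (SE 0.21). Ppp1r1b was at 1835, 1772, 1336 and 2231 CPM in saline and at 2424, 2380 and 1645 CPM in METH mice, and Gng7, a G protein subunit of dopamine signalling, had a log2 fold change of 0.23 (SE 0.21). Cnr1, the CB1 cannabinoid receptor, was the one pan-spiny gene with an unadjusted p under 0.05. It was at 350, 275, 207 and 229 CPM in saline and at 322, 558 and 331 CPM in METH mice, with METH replicate 2 alone above the saline range. Of 20 cortical excitatory genes 19 were lower, with a median of -0.43, which was 0.12 without saline replicate 3 and -2.34 without METH replicate 3.

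By compartment, 10 of 11 striosome genes were lower, with a median of -0.33, and 7 of 11 matrix genes, with a median of -0.28. The striosome list shares Pdyn and Tac1 with the direct pathway list and Nr4a1 with the immediate early genes. Kcnip1, a Kv4 channel-interacting protein, was its one member with an unadjusted p under 0.05, at 9.41, 12.5, 14.0 and 7.78 CPM in saline and 7.11, 7.19 and 8.70 CPM in METH mice. In the matrix list Gda, guanine deaminase, was at 149, 161, 199 and 156 CPM in saline and at 143, 101 and 140 CPM in METH mice, without overlap, and Cntnap3, a neuronal adhesion protein, had a log2 fold change of -0.37 (SE 0.16). The striosome median was -0.14 without METH replicate 2 and -0.19 without saline replicate 2, and the matrix median was -0.07 without METH replicate 3. Without the libraries rich in cortical RNA the matrix median was -0.02 and the striosome median -0.36. Levels of both lists overlapped between the groups.

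Among interneurons, 9 of 13 cholinergic genes were higher (median 0.11, with 0.25 without saline replicate 2 and a value just under 0 without saline replicate 3), and Chat, choline acetyltransferase, was at 22.3 ± 6.26 CPM in saline (SD, n = 4) and 24.3 ± 1.00 CPM in METH mice (SD, n = 3). Of 19 genes of GABAergic interneurons 16 were lower, with a median of -0.11 (-0.18 without METH replicate 1 and -0.07 without saline replicate 2). Levels of this list were 0.03, 0.15, 0.28 and -0.46 in saline and -0.25, -0.33 and -0.02 in METH mice, so saline replicate 4 was the lowest library. Calb2, calretinin, which also marks thalamic and septal neurons, was at 3.67, 18.3, 9.85 and 3.98 CPM in saline and at 2.81, 2.79 and 2.87 CPM in METH mice. The METH libraries were alike and below every saline library, while saline replicates 2 and 3 were highest.

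Synaptic genes leaned lower. Of 41 genes of synaptic vesicles and exocytosis 32 were lower, with a median of -0.13. Rims3, an active zone protein, was at 107, 117, 146 and 108 CPM in saline and at 95.9, 83.9 and 102 CPM in METH mice, without overlap. Syn2, synapsin II, was at -0.29 on the log2 scale (SE 0.11) and Amph, amphiphysin, one of -0.34 (SE 0.15), both with overlapping groups, and Snap25 stood at -0.15 (SE 0.16). Of 25 genes of GABA and glycine transmission 19 were lower, with a median of -0.06. The GABA-A receptor subunit Gabra5 stood at -0.47 (SE 0.17). Glutamate receptor and scaffold genes were divided, 21 higher and 19 lower, with a median of 0.00. The vesicle list's level was 0.18 in the cortex-rich saline replicate 3 and -0.28 in saline replicate 4. The vesicle median was -0.08 without saline replicate 3 and -0.22 without METH replicate 3, and the GABA median was -0.14 without METH replicate 2 and -0.03 without saline replicate 2.

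Potassium channel genes held members in both directions. Of 49 tested, 17 were higher and 32 lower, with a median of -0.10 that was -0.05 without METH replicate 1. At an unadjusted p under 0.05, 3 were higher and 4 lower. Besides Kcnt1, the higher ones were Kcnh4 and Kcnip3. Kcnh4, an EAG-family channel, was at 54.1, 45.7, 54.4 and 76.1 CPM in saline and at 84.6, 77.1 and 78.3 CPM in METH mice. Kcnip3, the calcium sensor DREAM, was at 91.1, 84.2, 96.8 and 115 CPM in saline and at 123, 116 and 121 CPM in METH mice. In both, saline replicate 4 came close to the METH libraries. Kcnip4, of the same family as Kcnip3 and Kcnip1, was lower, at 38.7, 37.5, 39.3 and 33.1 CPM in saline and 32.9, 31.5 and 28.0 CPM in METH mice, so that 1 Kv4-interacting protein was higher and 2 were lower.

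Imprinted genes, which are expressed from one parental allele, leaned lower, 30 of 42, with a median of -0.08 (-0.13 without METH replicate 1 and -0.04 without saline replicate 2) and 3 at an unadjusted p under 0.05 in each direction. Dio3, a thyroid hormone deiodinase of the Dlk1-Dio3 cluster, was at 1.02, 0.904, 0.920 and 1.42 CPM in saline and at 0.655, 0.364 and 0.725 CPM in METH mice. Blcap was at 75.5 to 81.0 CPM in saline and at 75.04, 59.8 and 62.1 CPM in METH mice, and Trappc9, a vesicle tethering subunit, at 58.3 to 62.6 CPM in saline and 56.3, 53.0 and 49.2 CPM in METH mice. These 3 did not overlap between groups, though METH replicate 1 lay close to saline for Blcap. Ddc, the dopamine-synthesizing decarboxylase, which is imprinted in some tissues, was higher, at 4.69 to 5.79 CPM in saline and 5.65, 7.65 and 8.61 CPM in METH mice.

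Metabolic and antioxidant lists had medians nearer 0. Of 31 NRF2 target and metallothionein genes 20 were higher, with a median of 0.08 (-0.02 without METH replicate 1 and 0.15 without saline replicate 4). Cat, catalase, was at 34.0, 36.0, 37.6 and 35.8 CPM in saline and at 41.3, 39.3 and 43.7 CPM in METH mice, without overlap. Nfe2l2, which encodes NRF2 itself, stood at 0.35 (SE 0.14), and Gstm1, a glutathione transferase, at 0.26 (SE 0.10). Of 31 cholesterol genes 26 were higher, with a median of 0.08 that was -0.03 and 0.13 without METH replicates 3 and 2. Cyp51, lanosterol demethylase, was at 38.0 to 44.9 CPM in saline and at 47.5, 45.8 and 51.1 CPM in METH mice. Among cytosolic ribosomal proteins, 62 of 79 genes were lower (median -0.03), and the median was 0.07 without saline replicate 4, whose level was 0.28, 0.03 without METH replicate 3 and -0.11 without METH replicate 1.

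Some genes had reads in some mice and none in others. Aox4, an aldehyde oxidase, had 24, 18, 29 and 23 reads in the saline and 0, 0 and 0 reads in the METH libraries. This is at least 22.4-fold lower, taking 3 reads over the group as the floor. In the F2 mice, grandsons of treated founders, it had 10 to 29 reads in each of the 8 libraries, whatever the founder's treatment. Its neighbours on chromosome 1 did not share this, with 135 to 213 reads for Aox1 in saline and 188 to 223 in METH mice, and 37 to 60 and 16 to 56 reads for Aox3. The long noncoding RNA 1700041B01Rik (chromosome 15, 78670638 to 78682066) had 0 reads in all saline libraries and 23, 19 and 30 in METH libraries, at least 33.5-fold higher, and in F2 it had 24 reads in 1 METH library and 0 in the other 7. Gm36170 had 0 reads in saline and 13, 15 and 10 in METH mice, while in F2 it was absent from 1 saline library and had 5 to 13 reads in the rest, METH and saline alike. For each of the 3, presence thus went with the sire's treatment in F1 and did not go with the founder's treatment in F2. Tests of the same F1 groups had called all 3, so their F1 pattern follows from the choice.

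Other genes had large differences between libraries that did not follow the groups as fully. Of those that follow, only Grin1os and Tigit had F1 libraries without reads. Grin1os, annotated antisense to the NMDA receptor gene Grin1, had 0, 103, 0 and 0 reads in saline and 158, 184 and 200 in METH mice. In F2 it was at 0 in 2 of 4 libraries of each group. Tigit had 0, 45, 0 and 0 reads in saline, 89, 89 and 103 in METH and 74 to 119 in the F2 libraries. The predicted gene Gm42048 had 217, 4, 4 and 5 reads in saline and 471, 385 and 609 in METH mice, and in F2 it had 1461 reads in 1 saline library and 3 to 7 in the others. Nvl, a nucleolar ATPase of ribosome assembly, had 1204, 1176, 1056 and 1150 reads in saline and 930, 3067 and 2462 in METH mice. Scaled for library total, METH replicate 1 was at 29.0 CPM, inside the saline range of 27.7 to 33.2 CPM. Mid1, a ubiquitin ligase gene at the pseudoautosomal boundary whose level is uncertain there, was at 18.97, 7.15, 8.09 and 7.76 CPM in saline and at 20.2, 122 and 52.3 CPM in METH mice. Across all genes tested, 336 had 0 reads in at least 1 F1 library and at least 20 in another. Of these 1, 1700041B01Rik, was silent in all saline and present in all METH libraries, and 1, Aox4, was the reverse. Gm36170 never reached 20 reads in F1. Without strand, reads of overlapping genes cannot be told apart, and genotypes of these outbred mice were not analysed here. Aox4, genes with Gm or Rik symbols, Grin1os, Tigit and Nvl were taken because at least 1 of the tests or fits called them.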

How the data were processed

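Total RNA of the striatum was sequenced in the 7 F1 mice. The submitters' processing notes name the build mm10 and, with no role or order, HISAT2 2.1.0, Trimmomatic, StringTie 2.1.3b and bcl2fastq 2.20.0. Their settings, the strandedness and the counting rule: not given in the sources used here. Per the file headers, the authors deposited read counts, FPKM and TPM for 45777 features. The deposited counts gave all tests, and the authors' TPM gave levels between genes and an alternative. The deposited FPKM was not tested.

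The F1 table was fitted alone with edgeR 4.0.16 in R 4.3.3, using the quasi-likelihood test after TMM scaling. Genes passed filterByExpr (minimum count 10), and p-values were adjusted by Benjamini-Hochberg over all 18499. List levels used log2 CPM with a prior count of 2. Alternatives were DESeq2 1.42.0, limma 3.58.1 (voom, and trend on log2(TPM + 1) or log2(TPM + 0.1)), other scalings and filters, a replicate block, each library left out, robust dispersion, the cortical list as a covariate, and leaving out libraries with Slc17a7 above 100 CPM. Only the edgeR quasi-likelihood fit was tested on simulated counts with known fold changes, which were larger than most described here. The alternatives and the list levels were not tested in this way.

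The members, the 46 gene lists and the tests were chosen with earlier results of these data known. The table held symbols for 1322 of 1328 list entries. The rule for named genes took, per list, up to 4 members with the smallest p under 0.05 and the 3 highest in TPM. Over all genes it took 15 per direction with the smallest p at a mean of at least 1 CPM, leaving out predicted genes, clones and pseudogenes, plus genes that a tool called. Fewer were printed, and some are not reported here. Positions and promoter sequences are from RefSeq (GRCm38.p6, the assembly mm10 is based on), matched by gene ID for 45679 features and counted from 1. Replicates differed beyond sampling noise (chi-square per degree of freedom 17.4 to 60.4), so each library counted as 1 sample. Total counts per library limit precision only for low genes, and intervals were not computed.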

Additional observations from a re-analysis of the deposited data

Results flagged for a closer look

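In groups of 4, a library is singled out when its gap to the nearest other library divided by the group's range exceeds Dixon's critical value. Chance flags about 1 in 20 groups. Of 177 genes examined in the saline group 13 passed this limit, and of 46 lists 0. The METH group of 3 was not examined.

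Saline replicate 4 was highest for 5 of them. Hba-a1, a haemoglobin gene with a near-identical copy, was at 344 CPM there and at 43.9 to 75.1 CPM in the other saline libraries (gap share 0.896). The clock genes followed, namely Bhlhe41 (57.1 against 37.5 to 39.4 CPM, 0.9), Tef (639 against 501 to 517 CPM, 0.879) and Cry2 (181 against 156 to 160 CPM, 0.838). The HSP90 partner Cdc37 was at 134 against 120 CPM (0.949).

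Saline replicate 3 was highest for the vessel gene Vtn (52.6 against 43.6 to 45.1 CPM, 0.83) and the oligodendrocyte gene Adamts4 (49.8 against 39.7 to 41.2 CPM, 0.848). It was lowest for the glucocorticoid target Tsc22d3 (49.3 against 63.8 to 65.2 CPM, 0.911). Saline replicate 1 was highest for Mid1 (18.97 against 7.15 to 8.09 CPM, 0.92) and Gm42048 (5.99 against 0.105 to 0.132 CPM, 0.995) and lowest for Olig1 (100 against 116 to 119 CPM, 0.859). Saline replicate 2 alone held reads of Grin1os (2.91 CPM, 1.0) and Tigit (1.27 CPM, 1.0).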

How the results depend on the processing

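At an adjusted p under 0.05, edgeR called 0 genes, DESeq2 11, limma-voom 3, limma-trend on log2(TPM + 1) or log2(TPM + 0.1) 1 each, and edgeR without the libraries with Slc17a7 above 100 CPM 1. Leaving out single libraries gave 0 to 2. The 774 genes at an unadjusted p under 0.05 became 513 (without saline replicate 2) to 1247 (without saline replicate 4), 1371 with the cortical list as covariate and 472 without the libraries with Slc17a7 above 100 CPM. With the replicate block there were 1846, and 0 were called. Same-numbered libraries deviated with correlations of -0.035, 0.059 and 0.401, the last being the highest of any saline and METH pair. That pair, both replicates 3, was rich in cortical RNA, and the labels give no pairing behind the number.

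Of 46 list medians 22 changed sign in some alternative, among them 6 of the 24 lists with at least 75% of members in 1 direction. Of 177 genes 9 did; the cause was not tested. With single libraries left out, the 6 medians ran from -0.0111 to 0.2113 for all spiny projection neurons, -2.3394 to 0.1175 for cortical neurons, -1.406 to 0.0739 for erythrocytes, -0.0996 to 0.0088 for nuclear respiratory subunits, -0.1096 to 0.0667 for ribosomal proteins and -0.0279 to 0.1279 for cholesterol genes. The replicate block gave 0.0911 for erythrocytes and 0.0608 for ribosomal proteins, the cortical covariate -0.0149 for spiny neurons, and leaving out libraries by Slc17a7 -0.0221 for cholesterol genes.

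With single libraries left out, log2 fold changes ran from -0.0286 to 0.1425 for Olig1, -0.0457 to 0.1296 for Glul, -0.0079 to 0.0897 for Clock, -0.0322 to 0.266 for Penk, -0.0633 to 0.2031 for Drd1, -1.4604 to 0.0452 for Hba-a1, -3.1271 to 0.0742 for Slc17a7, -0.2174 to 0.0433 for Cry1 and -0.0545 to 0.1597 for Fbxl21. On log2(TPM + 1) and log2(TPM + 0.1), Olig1 was -0.0229 and -0.0231, Glul -0.014 in both, and Clock -0.0189 and -0.0199. The replicate block gave -0.0399 for Glul, 0.0814 for Hba-a1 and -0.0519 for Fbxl21, the covariate -0.0365 for Drd1 and 0.0229 for Slc17a7, and leaving out libraries by Slc17a7 -0.0701 for Olig1 and 0.0186 for Cry1. Depth limits genes of few reads, such as Aox4 and Gm36170.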

Other observations

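Of genes marking tissue that borders the striatum, 4 of 12 tested choroid plexus genes and 15 of 28 ependymal genes were higher in METH mice. The ependymal level was 0.21, -0.47, -0.87 and 1.14 in saline replicates 1 to 4 and 0.31, 0.30 and 0.43 in METH replicates 1 to 3, so the saline libraries alone spanned the METH ones. Of 22 genes of neuroblasts and dividing cells 15 were lower, with a median log2 fold change of -0.09 that was 0.04 without saline replicate 4. Of 16 thalamic, septal and hypothalamic genes 8 were higher and 8 lower.

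Among other groups, 25 of 35 drug and aldehyde metabolising genes were higher, with a median of 0.16 (0.06 without saline replicate 3). Genes of DNA methylation and histone modification were divided, 27 higher and 18 lower, with a median of 0.01. Genes of dopamine synthesis, transport and signalling had a median of 0.04, with 16 of 27 higher, and genes of purine metabolism one of 0.02, with 11 of 21 higher.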
